A study of Mus musculus with 3 samples.

Results

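The genes described here serve transport in the primary cilium, and their transcript levels were read from UMI-RNAseq of NIH3T3 cells, an established line of mouse embryonic fibroblasts. They were chosen by name from the 55573 genes of the deposited table. Every gene whose name is Ift or Bbs followed only by a number was taken, together with 21 named kinesin, dynein, IFT-A, ARL, basal body, transition zone and polycystin genes. This gave 43 genes, all annotated as protein coding. The series holds 3 libraries, called library 1, 2 and 3 after the numbers in their titles. All come from untreated cells grown in DMEM with fetal bovine serum, so they share 1 condition and no group of samples was compared with another. The sources used here name no step of serum withdrawal and do not tell whether each library is a culture of its own, and the SD between libraries may therefore be technical. In this method a random tag (UMI) marks each molecule ahead of amplification, and PCR copies are recognized by it and dropped. Levels are given as FPKM, fragments counted relative to the length of the gene (in kilobases) and to the library total, a unit in which genes of unequal length can be set side by side. Libraries 1, 2 and 3 rest on 14423209, 13959723 and 14307241 counted fragments, totals that were inferred from the FPKM values.

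The primary cilium is a single, immotile projection of the cell surface, built on a centriole that has docked to the membrane as a basal body. It forms mostly in cells that have left the cycle, and it gathers receptors of the Hedgehog pathway and others. No protein is made inside it, so tubulin and membrane proteins are carried in by intraflagellar transport (IFT). IFT-B complexes are pulled towards the tip by kinesin-2, and IFT-A complexes return to the base with dynein-2. The BBSome, a coat-like complex named after Bardet-Biedl syndrome, rides on these trains and moves membrane proteins out of the cilium. Small GTPases of the ARL family load and unload cargo, and the transition zone at the base acts as a gate.

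Cilium genes of many animals are regulated by RFX transcription factors, which bind the X-box, a site of inverted arms near the gene start. The sequence GTTGCC, an arm of the X-box, was searched on either strand in RefSeq promoter windows of GRCm38.p6, from 250 bases before to 50 bases after each start. Windows were found for 38 of the 43 genes. Those of Ift81, Ift122, Ift80, Tmem67 and Dync2li1 were not in the table. GTTGCC was present for 14 of the 38 genes (36.8%), against 2510 of the 17492 protein-coding genes with a window (14.3%). For 7 of these 14 genes the site lay before the start, and 6 of the stretches that hold it are printed on the strand of the gene, with the site in capitals. Ift57 and Kif17 follow them with a longer match.
Bbs7, chr3:36613493-36613522, minus strand: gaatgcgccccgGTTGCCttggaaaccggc
Ift140, chr17:25015965-25015994, plus strand: gcgtgttgtgacGGCAACctcgcgcccttg
Ift27, chr15:78174082-78174102, minus strand: gggttgatgatgGTTGCCagg
Kif3a, chr11:53567259-53567288, plus strand: caccccgcaggcGTTGCCccagtctagcgt

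The whole X-box, with both of its arms at most 3 bases apart, was searched on either strand and was found for 3 of the 38 genes (7.89%) and for 1.73% of the protein-coding genes. This search was added after the stretches had been seen. The matches of Ift57 and Kif17 are shown because they are the only 2 genes with a whole X-box before the start, and here the capitals span both arms.
Ift57, first match, chr16:49699199-49699228, plus strand: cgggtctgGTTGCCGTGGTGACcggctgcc
Ift57, second match, chr16:49699226-49699254, plus strand: gccctgcgGTTGCCTGGTAACggtgggga
Kif17, chr4:138262170-138262198, plus strand: tcacggagGTTGCCCAGCAACggcgaacg

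Counted from the start, the first base of GTTGCC in these 6 genes lay between position -121 (Bbs7) and position -9 (Ift27). In GENCODE M21 the annotated bounds of Ift27, of Ift57 at its second match and of Kif17 already include the match in capitals, since these genes begin further upstream there. For Kif17 the distance is large, since the gene begins at 138250435 there and the match lies at 138262178 to 138262190. In 7 of the 14 genes the site lay after the RefSeq start, from position 1 in Ift172 and 2 in Bbs1 to 43 in Bbs5, and the match in Bbs1 was the third whole X-box. The remaining sites of this kind were in Ift88, Cep164, Dync2h1 and Wdr35. The longer form GTTGCCATG, which contains GTTGCC, was in none of the 38 genes and in 0.766% of protein-coding genes. With GTTACC or GTTGCC as the motif, 17 genes (44.7%) matched, against 20.6% of protein-coding genes. The windows of the cilium genes had a median GC content of 61.0%, and those of all protein-coding genes 56.3%. The part of base composition in these shares was not tested, and a match describes letters only.

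Of the 43 cilium genes, 42 had an FPKM of at least 1 in every library (97.7%), whereas 48.5% of all 21980 protein-coding genes did. The exception was Kif17. Their levels were moderate. The median over the 43 genes was 11.7 FPKM, against 21.9 FPKM for the 10813 protein-coding genes with a mean of at least 1, whose quartiles were 8.78 and 49.3. In all, 11 cilium genes lay above that median and 32 below it. Summed over the 43 genes, libraries 1, 2 and 3 had 803.1, 798.0 and 799.8 FPKM. When the genes were ordered by mean, 25 of the 42 neighbouring pairs had overlapping ranges over the libraries and 17 did not, and 11 of the 25 overlapping pairs still had the same order within each library.

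**Figure D1:**
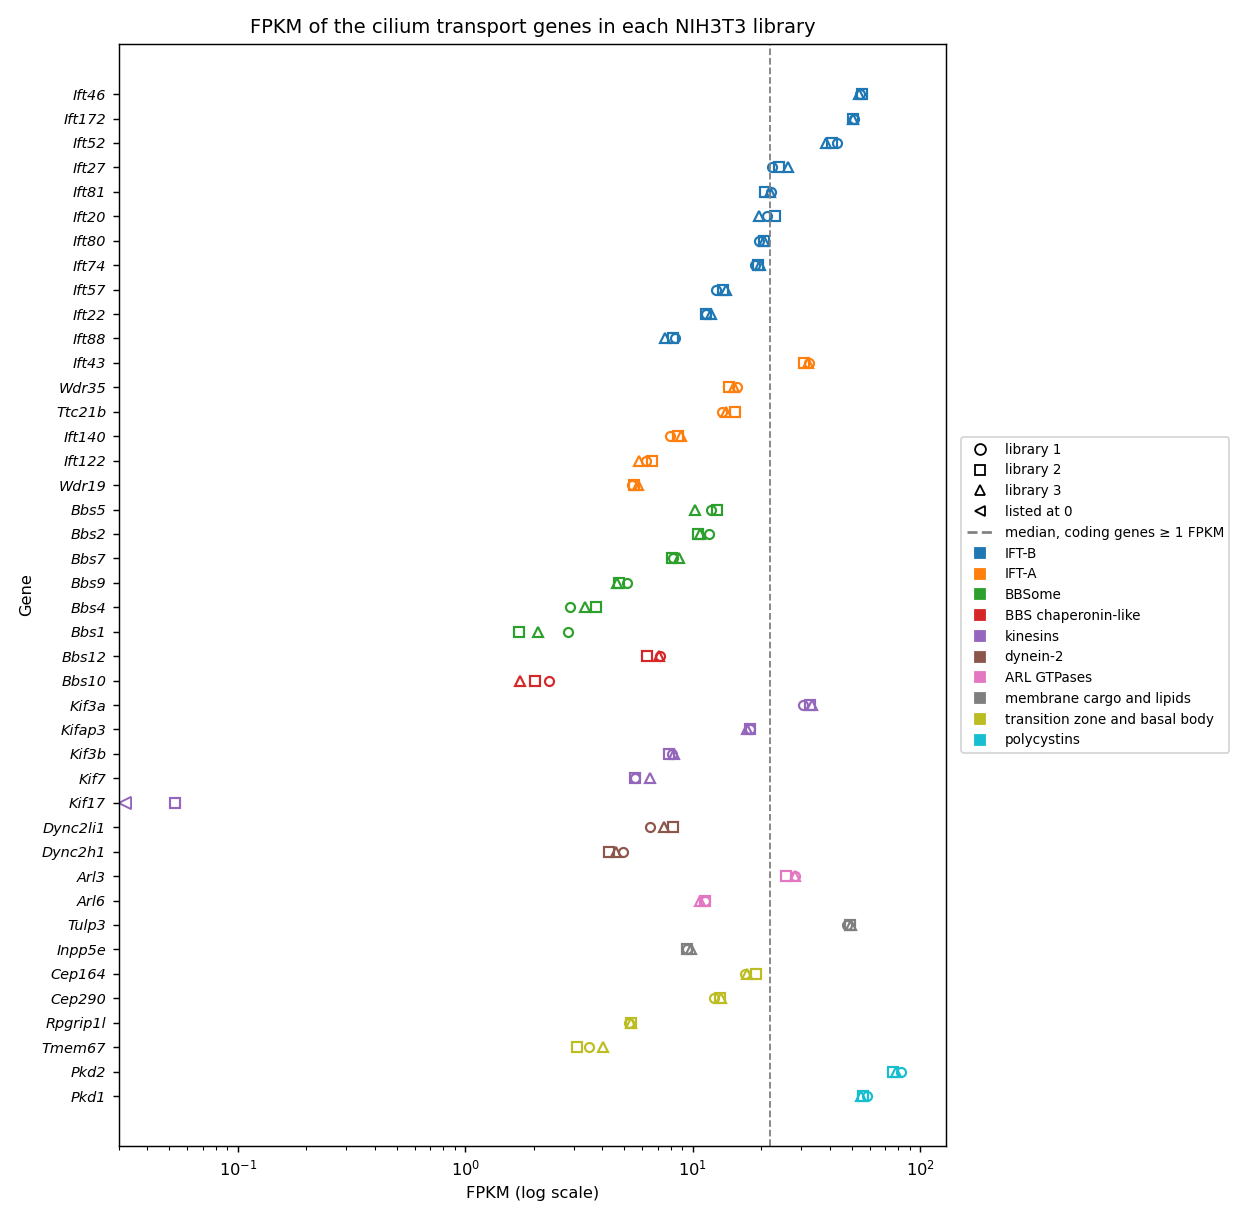
FPKM (log axis) of 42 of the cilium genes in library 1 (circle), library 2 (square) and library 3 (triangle), coloured and grouped by complex; a left-pointing triangle marks a gene listed at 0, and the dashed line is the median of protein-coding genes that average 1 FPKM or more. IFT-B genes spread around the line, all 6 BBSome genes lie to its left, and Kif17 stands alone at 0 in libraries 1 and 3 and at 0.0531 in library 2.

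The transcripts of the IFT-B complex stood highest among the transport complexes. All 11 had at least 1 FPKM in each library, and their medians were 21.1, 20.7 and 20.5 FPKM in libraries 1, 2 and 3. The highest was Ift46, with 54.1, 55.7 and 53.5 FPKM in libraries 1, 2 and 3 (mean 54.4 ± 1.12, SD, n = 3). In other species IFT46 is known for the import of axonemal dynein arms, and it is a member of the IFT-B core. Ift172, which encodes the largest IFT-B protein, followed with 51.0, 50.6 and 50.4 FPKM (mean 50.7 ± 0.277, SD, n = 3), the narrowest relative spread of all the cilium genes. Its libraries did not overlap with those of Ift46. Ift52, a scaffold of the IFT-B core, had 43.1, 40.9 and 38.4 FPKM.

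Ift27, a small GTPase that links IFT-B to the exit of the BBSome, had 22.2, 23.9 and 26.3 FPKM. Its coefficient of variation, the SD as a share of the mean, was 8.52%, and that expected from counting error alone was 5.89%. Ift81 and Ift74 encode partners that form the tubulin-binding module. Ift81 had 22.0, 20.7 and 21.8 FPKM, and Ift74 had 18.8, 19.3 and 19.7 FPKM, so that every library of Ift81 lay above every library of Ift74. With the longest isoform of each gene as the length this order turned, to 8.62 ± 0.276 FPKM for Ift81 and 13.2 ± 0.315 for Ift74 (SD, n = 3). Ift20, which also acts at the Golgi, had 21.1, 23.1 and 19.5 FPKM, and Ift80 had 19.5, 20.6 and 20.5 FPKM. The ranges of Ift20 and Ift80 overlapped.

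At the lower end of IFT-B, Ift57 had 12.6, 13.5 and 13.9 FPKM, and Ift22, a GTPase-like subunit, had 11.4, 11.4 and 12.02 FPKM. Ift88 was the lowest of the 11. It is the gene altered in the Oak Ridge polycystic kidney mouse and is needed to build a cilium. Its FPKM was 8.34, 8.19 and 7.53, from 222, 211 and 199 fragments (mean 8.02 ± 0.427, SD, n = 3). The highest IFT-B mean thus exceeded the lowest by 6.79-fold, although the subunits act in a single complex. Of the IFT-B genes with a promoter window, Ift172, Ift27, Ift57 and Ift88 hold GTTGCC, and Ift46, Ift52, Ift20, Ift74 and Ift22 do not. A gene high as deposited, Ift172, and the lowest, Ift88, were thus both among those with the site. With the longest isoform as the length, Ift172 had 10.9 FPKM, the median of the IFT-B genes on that scale. A relation between site and level was not tested.

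The IFT-A transcripts were lower. Their median was 10.7, 11.5 and 11.4 FPKM in libraries 1, 2 and 3, and 1 of the 6 genes lay above the median of protein-coding genes. That gene was Ift43, a small peripheral subunit, with 32.5, 30.9 and 32.1 FPKM (mean 31.9 ± 0.825, SD, n = 3). The other peripheral subunits came next. Wdr35 (IFT121) had 15.7, 14.4 and 15.2 FPKM, and Ttc21b (IFT139) had 13.5, 15.4 and 14.0 FPKM. The core subunits were the lowest of the complex. Ift140 had 7.91, 8.63 and 8.83 FPKM, Ift122 had 6.22, 6.64 and 5.83, and Wdr19 (IFT144) had 5.43, 5.51 and 5.76. In every library each of the peripheral genes lay above each of the core genes.

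The BBSome subunits named Bbs were lower still, with a median of 6.67, 6.42 and 6.69 FPKM, and none of the 6 reached the median of protein-coding genes. Bbs5, whose protein binds phosphoinositides, had 12.1, 12.8 and 10.2 FPKM. Bbs2 and Bbs7 belong, with Bbs9, to the part of the complex that is assembled early. Bbs2 had 11.8, 10.6 and 10.8 FPKM, Bbs7 had 8.21, 8.09 and 8.74, and Bbs9 had 5.13, 4.76 and 4.65. The ranges of Bbs5 and Bbs2 overlapped, and those of Bbs7 and Bbs9 did not. Bbs4 had 2.88, 3.75 and 3.36 FPKM. Bbs1, the subunit that binds ARL6 and a frequent site of mutation in Bardet-Biedl syndrome, was the lowest, with 2.82, 1.73 and 2.08 FPKM. Library 1 was high and library 2 was low for Bbs1, with 79, 47 and 58 fragments, and its mean of 2.21 ± 0.553 (SD, n = 3) had a coefficient of variation of 25.04%. Bbs12 and Bbs10 encode chaperonin-like proteins that help the BBSome to assemble and are not part of it. Bbs12 had 7.19, 6.29 and 7.13 FPKM, and Bbs10 had 2.32, 2.03 and 1.74.

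To compare complexes within a library, the median log2 FPKM of a complex was set against the median log2 FPKM of protein-coding genes with a mean of at least 1. IFT-B lay at -0.075 ± 0.017 (SD, n = 3 libraries), a value whose sign turned with the mean over its genes (0.011) and with all coding genes above 0 FPKM as reference (0.48). IFT-A lay at -1.01 ± 0.065, and the BBSome at -1.78 ± 0.035. The median of IFT-B exceeded that of IFT-A by 2.04-fold, 1.86-fold and 1.84-fold in libraries 1, 2 and 3, and that of the BBSome by 3.25-fold, 3.34-fold and 3.21-fold. IFT-A exceeded the BBSome by 1.59-fold, 1.80-fold and 1.74-fold. The order IFT-B, IFT-A, BBSome was therefore the same in all 3 libraries, and each difference was larger than its SD over the libraries (0.93 ± 0.08, 1.71 ± 0.03 and 0.77 ± 0.09 on the log2 scale). This SD describes the libraries only and not the spread among the genes of a complex. The highest gene mean exceeded the lowest by 6.79-fold in IFT-B, 5.72-fold in IFT-A and 5.29-fold in the BBSome, and the ranges of the complexes overlapped. No p-value is given for these medians, since the genes were chosen with earlier results of the data known. When subunits that carry other names were added (7 to IFT-B, and Ttc8 and Bbip1 to the BBSome), the differences shrank on the log2 scale. That between IFT-B and IFT-A fell to 0.56, and that between IFT-B and the BBSome to 1.08. The 7 include Ttc30a1, Ttc30a2 and Ttc30b (means 0.504, 0.0386 and 1.46 FPKM), near-identical copies for which the assignment of fragments is uncertain. The differences with the other added subunits alone were not computed.

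The motor genes differed among themselves as well. Kinesin-2 is a trimer of the motor subunits KIF3A and KIF3B with KAP3, the product of Kifap3. Kif3a had 30.5, 32.8 and 33.3 FPKM, Kifap3 had 17.8, 17.8 and 17.3, and Kif3b had 8.08, 7.83 and 8.31. Within the libraries Kif3a lay above Kif3b by 3.77-fold, 4.18-fold and 4.01-fold (mean 3.99 ± 0.209, SD, n = 3). It lay above Kifap3 by 1.71-fold, 1.84-fold and 1.92-fold (mean 1.82 ± 0.109, SD, n = 3). Neither ratio came near 1 in any library. An exact permutation test that flips the signs of the log2 ratios (two-sided) gave p = 0.25 for both, which is the smallest value that 3 libraries allow. The direction of the second ratio depended on the gene length used, as described with the isoform lengths.

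KIF7 is a kinesin that organizes the tip of the cilium and regulates the GLI factors of the Hedgehog pathway. Kif7 had 5.56, 5.55 and 6.47 FPKM, and library 3 was high. Kif3a exceeded it by a mean of 5.51 ± 0.382-fold (SD, n = 3), which fell to 2.88 ± 0.200-fold with the longest isoform as the length. Kif17 encodes a second, homodimeric kinesin-2 that carries receptors in neurons and photoreceptors. It was listed at 0 in libraries 1 and 3 and at 0.0531 FPKM in library 2, from 2 fragments in all. Over the pooled libraries this is 0.0174 FPKM, with an exact Clopper-Pearson 95% interval from 0.00210 to 0.0627 that covers counting error only. Kif3a had 32.2 FPKM pooled, 1854 times as much (interval 513.1 to 15305). At this depth, 3 fragments of Kif17 would be 0.0770 to 0.0796 FPKM. The RefSeq promoter window of Kif17 holds a whole X-box, in the stretch printed above, as does that of Ift57. In GENCODE M21 the match of Kif17 lies far inside the annotated gene, and a relation between site and level was not tested.

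Dynein-2 drives the return from the tip. Its heavy chain gene Dync2h1 had 4.94, 4.30 and 4.60 FPKM, and its light intermediate chain gene Dync2li1 had 6.51, 8.16 and 7.47. Dync2li1 lay above Dync2h1 by 1.32-fold, 1.90-fold and 1.62-fold (mean 1.61 ± 0.291, SD, n = 3), with the lowest ratio in library 1. The 6 pairs of genes tested in this way all had p = 0.25 in the exact sign-flip permutation test, and 0.25 after Benjamini-Hochberg adjustment over the 6.

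Among the genes for cargo loading and membrane composition, Arl3 had 28.1, 25.6 and 28.1 FPKM and was lowest in library 2. ARL3 is the GTPase that releases lipid-modified proteins into the cilium. Arl6, the GTPase that recruits the BBSome to membranes, had 11.3, 11.3 and 10.8 FPKM. Arl3 exceeded it by a mean of 2.45 ± 0.176-fold (SD, n = 3). Tulp3, which couples membrane receptors to IFT-A, was among the highest cilium genes with 47.7, 49.1 and 49.5 FPKM (mean 48.8 ± 0.937, SD, n = 3). Inpp5e, a lipid phosphatase that keeps the ciliary membrane low in a plasma membrane phosphoinositide, had 9.43, 9.42 and 9.83 FPKM.

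At the base of the cilium, Cep164, needed to dock the centriole by its distal appendages, had 17.003, 18.9 and 17.3 FPKM. The transition zone genes of the naming rule were lower. Cep290 had 12.4, 13.2 and 13.3 FPKM, Rpgrip1l had 5.24, 5.36 and 5.35, and Tmem67 had 3.51, 3.11 and 4.04. These 4 genes together lay at -1.40 ± 0.041 (SD, n = 3) on the log2 scale relative to protein-coding genes, between IFT-A and the BBSome. The further transition zone genes described below were not part of this level, and they lay partly above and partly below Cep164.

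The polycystin genes had the highest FPKM as deposited, and with the longest isoform as the length Pkd1 was the 13th of the 43 genes. PKD1 is a large receptor-like membrane protein and PKD2 its channel partner, and both are mutated in dominant polycystic kidney disease. Pkd2 (ENSMUSG00000034462, chromosome 5 from 104459450 to 104505819, plus strand, GRCm38) had 82.1, 75.9 and 78.3 FPKM, from 4986, 4462 and 4719 fragments. Its mean of 78.8 ± 3.12 (SD, n = 3) exceeded 85.6% of the expressed protein-coding genes. Pkd1 (ENSMUSG00000032855, chromosome 17 from 24549834 to 24596508, plus strand) had 58.3, 56.2 and 55.1 FPKM. Pkd2 lay above Pkd1 by 1.41-fold, 1.35-fold and 1.42-fold (mean 1.39 ± 0.0381, SD, n = 3). The exons of Pkd1 overlap those of Tsc2 on the opposite strand over 3.98% of their length.

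The FPKM of many of these genes rested on a length far shorter than the full transcript. The values became whole fragments when multiplied by the mean length of all isoforms annotated in GENCODE M21, short non-coding isoforms included, and by the library total. The longest isoform of the cilium genes was a median of 1.87 times this mean, close to the 1.85 of all expressed protein-coding genes, but the factor ran from 1.00 in Kif3b, with 1 isoform, to 4.83 in Pkd1. It was 4.65 in Ift172 and 4.36 in Ift46. Ift172 (ENSMUSG00000038564, chromosome 5 from 31253277 to 31291116, minus strand) has 11 isoforms, 4 of them coding, with a mean length of 1162 nt and a longest of 5403 nt. Ift46 (ENSMUSG00000002031, chromosome 9 from 44767908 to 44793447, plus strand) has 13 isoforms with a mean of 956 nt and a longest of 4169 nt.

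Divided by the longest isoform instead, Ift46 had 12.5 FPKM, Ift172 had 10.9 and Pkd1 had 11.7. Pkd2 stayed highest with 63.6 FPKM, followed by Tulp3 with 26.1 and Ift43 with 24.6. Ift52 became the highest IFT-B gene with 19.1 FPKM, and Ift88 was still the lowest with 3.50. Pkd2 then exceeded Pkd1 by 5.43 ± 0.148-fold (SD, n = 3), against 1.39-fold as deposited. Kif3a exceeded Kif3b by 2.02 ± 0.106-fold, and its ratio to Kifap3 turned to 0.930 ± 0.0557. Dync2li1 lay above Dync2h1 by 2.71 ± 0.490-fold on this scale. The direction of the Kif3a to Kifap3 ratio, like the order of Ift81 and Ift74, is therefore set by the length assumed, and which isoforms the cells express cannot be read from gene-level FPKM.

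**Figure D2:**
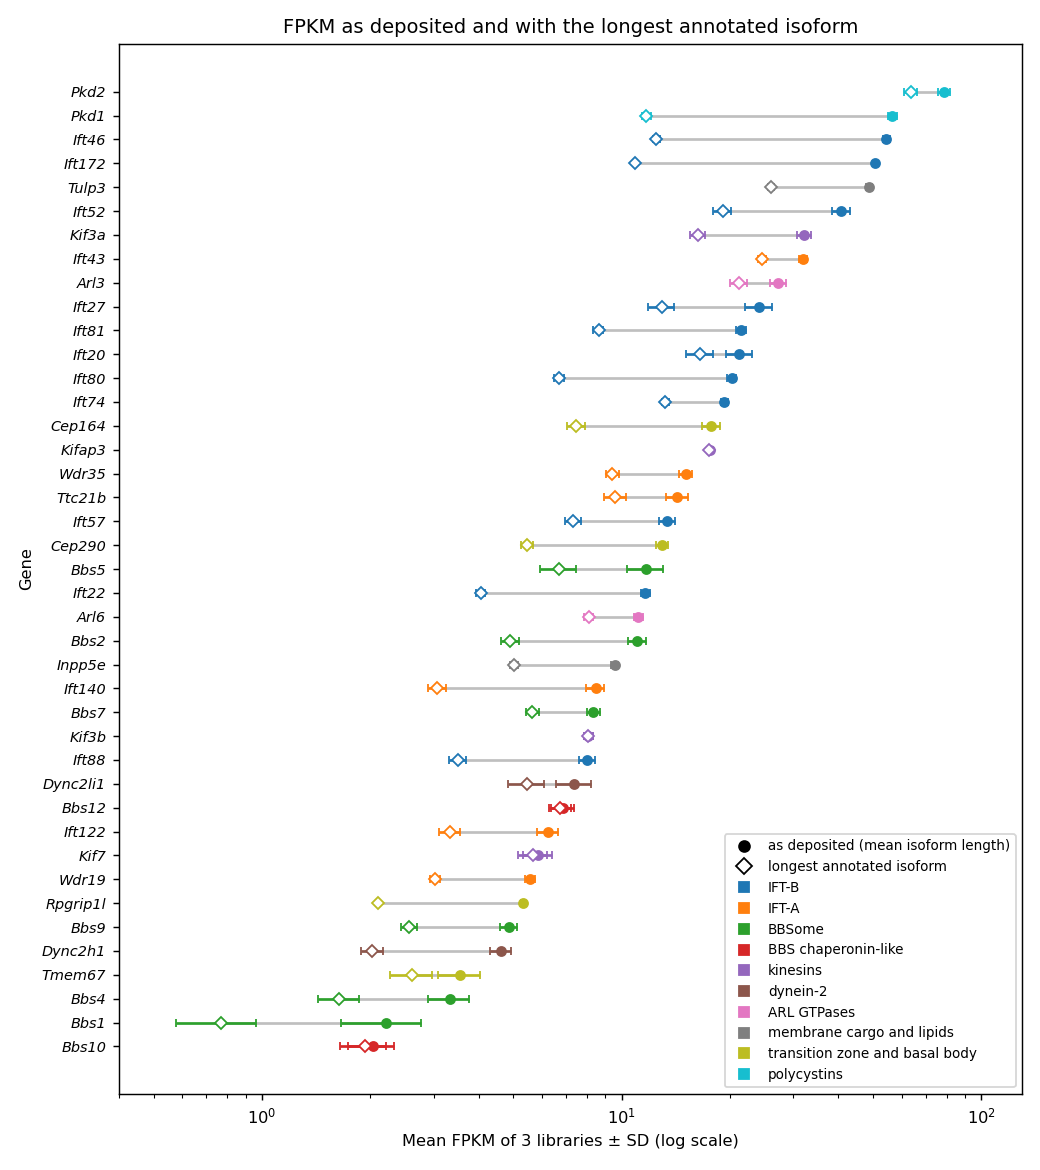
Mean FPKM (log axis) of the same cilium genes without Kif17, as deposited (filled circles) and recomputed with the longest annotated isoform (open diamonds); bars are the SD over 3 libraries and colours mark the complex. The grey line between the symbols is long for Pkd1 (56.6 to 11.7), Ift46 (54.4 to 12.5) and Ift172 (50.7 to 10.9) and absent for Kif3b, so the order of the genes changes with the length used.

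The spread between libraries was set against counting error. For each gene with at least 30 fragments, the chi-square statistic of its fragments was taken against the library totals, and 5.99 is the limit that 5% of genes exceed under counting error alone. Of the 42 cilium genes with enough fragments, 4 exceeded the limit (9.52%), as did 9.49% of all 13643 genes. The median statistic was 1.82 for the cilium genes, 1.59 for all genes and 1.39 for counting error alone. Pkd2 had 14.8, Bbs1 7.66, Ttc21b 7.20 and Kif7 6.06. In Pkd2 and Bbs1 library 1 was high and library 2 low, in Ttc21b library 2 was high, and in Kif7 library 3 was high, so no library was high for all 4. The coefficient of variation ran from 0.548% in Ift172 to 25.04% in Bbs1, with a median of 4.88%. Without library 1, 2 of the 42 genes exceeded the matching limit for the other libraries (4.76%), against 6.96% of all genes. Without library 2 or library 3 it was 4 of the 42 each time, against 9.05% and 8.94% of all genes.

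**Figure D3:**
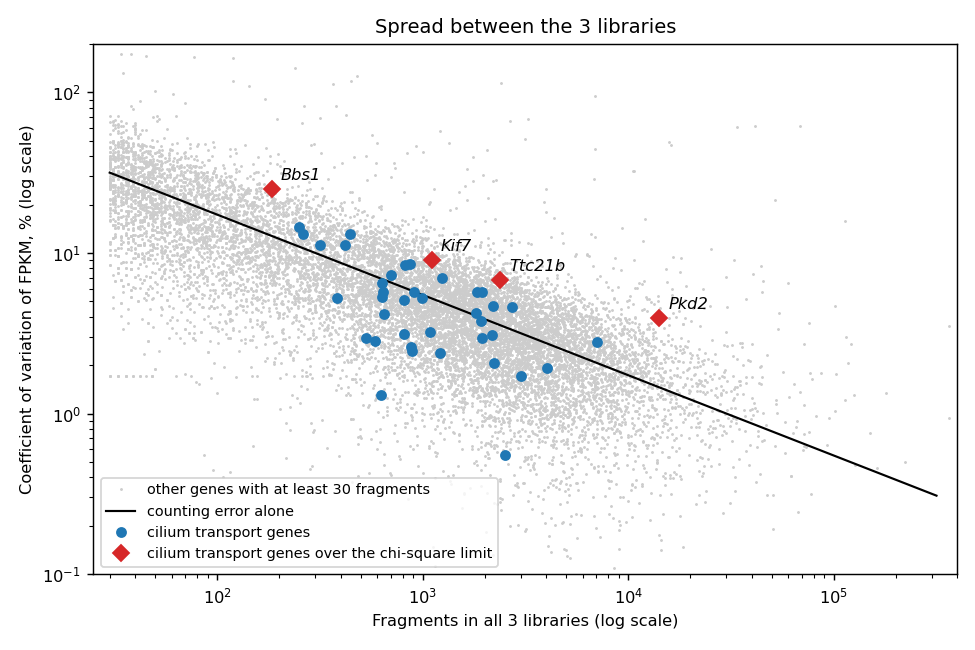
Coefficient of variation of FPKM over the 3 libraries (percent, log axis) against the fragments of the gene in all libraries (log axis), with other genes in grey, cilium genes in blue and those over the chi-square limit as red diamonds; the black line is counting error alone. The cilium genes scatter around the line within the grey cloud, and Pkd2, with 14167 fragments, lies above it at 3.96%.

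Genes of the same complexes and of the cilium base that the naming rule does not reach were read from 6 lists with 45 genes. Of these, 41 had at least 1 FPKM in each library, whereas 48.5% of all protein-coding genes did. The median of the 45 genes was 10.2 FPKM, against 11.7 for the 43 genes. Among IFT-B subunits with other names, 5 of 7 reached 1 FPKM. Hspb11 (IFT25), the partner of IFT27, had 29.6 ± 1.29 FPKM (SD, n = 3), beside 24.1 ± 2.06 for Ift27. Ttc30a2 was the lowest with 4 fragments in all. It belongs to the IFT70 genes, near-identical copies for which the assignment of fragments is uncertain, and Ttc30a1 had 0.504 ± 0.0956 FPKM. In the BBSome list, 3 of 4 genes reached 1 FPKM. Ttc8 (BBS8) had 22.8 ± 0.610 FPKM (SD, n = 3), above every BBSome gene named Bbs, and Mkks (BBS6), a relative of Bbs10 and Bbs12, had 0.842 ± 0.0270. Other annotated genes overlap 29.3% of the exon bases of Mkks.

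All 6 further dynein-2 genes were detected, from Wdr34, an intermediate chain, with 12.3 ± 0.728 FPKM to Dynlrb1 with 101.9 ± 2.77. Dynlrb1 is a light chain that dynein-2 shares with cytoplasmic dynein. Of 15 transition zone genes 14 were detected, with Tmem237 highest at 24.7 ± 0.653 FPKM and Mks1 listed at 0 in all libraries. All 9 genes of the distal appendages and basal body were detected. They ran from Ttbk2, the kinase that starts cilium assembly, with 3.33 ± 0.138 FPKM to Fbf1 with 36.1 ± 1.06. Cdan1, at 8.48 FPKM, overlaps 29.9% of the exon bases of Ttbk2 on the same strand. The 4 carriers of lipid-modified cargo were detected as well. Pde6d, the carrier from which ARL3 releases prenylated proteins such as INPP5E, had 46.5 ± 1.39 FPKM, and Rp2, which inactivates ARL3, had 7.17 ± 0.423.

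The cell type was checked against lists of markers. Of 10 fibroblast markers 9 had at least 1 FPKM in each library, led by Fn1 (fibronectin) with 4377 ± 86.1 FPKM, while Fap was lowest with 0.0378. Their summed level was 9220 to 9335 FPKM. Of 12 genes of multiciliated cells, which build motile cilia with the same IFT machinery, only Ccdc39 reached 1 FPKM, with 2.86 ± 0.518. The list summed to 3.88 to 4.95 FPKM, and Rsph1, Rsph4a and Spag6l were listed at 0. The extraction text of the sample labels mentions retina, so 12 photoreceptor genes were examined as well. None had at least 1 FPKM in each library. Rom1 was highest with 1.005, 0.897 and 0.737 FPKM (mean 0.880 ± 0.135, SD, n = 3), Nrl was listed at 0, and the list summed to 1.78 to 2.76 FPKM. The labels give NIH3T3 as the cell line, and the libraries were treated as such.

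**Figure D4:**
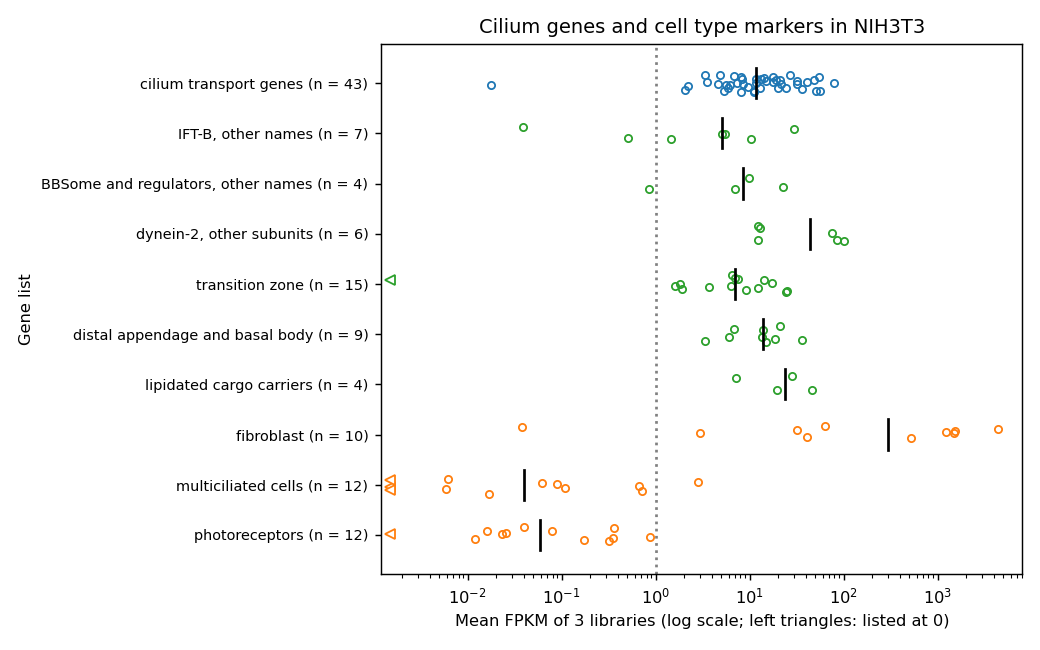
Mean FPKM over 3 libraries (log axis) of each gene in the 43 cilium transport genes (blue), the 6 lists of other cilium genes (green) and the 3 lists of cell type markers (orange); black bars are the medians, the dotted line is 1 FPKM, and left-pointing triangles are genes listed at 0. The cilium lists lie mostly between 1 and 100 FPKM, the means of the photoreceptor genes lie below 1, and Ccdc39 is the multiciliated gene above 1.

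Annotated overlap and shared sequence were not computed for all genes, so the counts given here have no such share beside them. The exons of 11 of the 43 genes are overlapped by another gene, over more than 20% of their bases in Inpp5e and Kif7. Inpp5e shares 20.3% of its exon bases with other genes, all with Pmpca on the opposite strand, which had 99.0 FPKM. Kif7 shares 20.3%, mostly with the antisense gene 9330171B17Rik, at 0.207 FPKM, and otherwise with Ticrr, at 11.9 FPKM. The use of strand in counting is not given in the sources used here, so reads of these genes and their antisense partners cannot be told apart in the shared bases. When each gene was cut into words of 75 nt, 28 of the 43 genes shared none with another gene, and the highest share was 16.9%, in Inpp5e.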

How the data were processed

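RNA of NIH3T3 cells was measured by UMI-RNAseq in 3 libraries, with 150 nt paired-end reads according to the methods. Per the submitters' processing notes, UMIs were handled with UMI-tools 1.0.0, reads were mapped with HISAT2 2.0.4 and counted with HTSeq 0.6.1, and DESeq 1.10.1 is also named. The mapping build and annotation are not given in the sources used here. The authors deposited FPKM values, 1 column per library, in 2 tables with identical rows (55573 genes), and 0 columns of values were left unused.

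Count models were left out, since FPKM are normalized. Fragments were recovered as FPKM times the mean isoform length (GENCODE M21, GRCm38, in which 55480 gene IDs were found) times the library total, and were whole within 0.01 in all libraries for 99.1% of 26193 detected genes. The totals were inferred, with the commonest product of FPKM and length among genes with 1 isoform taken as 1 fragment. They were 14423209, 13959723 and 14307241 fragments for libraries 1, 2 and 3. The steps were tested on simulated data. The statistics were computed with Python 3.11.15, numpy 2.4.6, pandas 2.3.3 and scipy 1.17.1, and figures were drawn with matplotlib 3.10.9.

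Ratios of 6 gene pairs were taken within libraries and tested by flipping signs exactly (permutation, two-sided). Another, Kif3a to Kif17, could not be tested, since Kif17 was listed at 0, and is given as a pooled ratio. Intervals and floors (3 fragments) cover counting error only. Every gene of the naming rule but 1, which is counted but not reported here, is named, with the highest, the lowest and any gene listed at 0 of each further list, and genes that overlap them. The other genes with values (Ttc30a1, Ttc30b, Supt4a, Dynll2 and Tspoap1) were named after their values were seen. The genes and lists were chosen with earlier results of these data known. Dnai1 and Dnai2 were matched through RefSeq synonyms. Alternatives were leaving out each library, scaling (TPM, median of ratios), other limits of 0.5 and 2 FPKM, pseudocounts of 1 and 0.1, other lengths, the mean over genes, added subunits, other reference genes and other motifs. The whole X-box and the chi-square without each library were added after the data were examined. With 1 condition, no groups were compared.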

Additional observations from a re-analysis of the deposited data

How the results depend on the processing

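All main values kept their direction when each library was left out, and the numbers of detected genes stayed at 42 of the 43 and 41 of the 45. The chi-square count ran from 2 of 42 (without library 1, where 6.96% of all genes exceeded the limit) to 4. The motif count fell from 14 to 0 with GTTGCCATG and to 3 with the whole X-box. The level of IFT-B against protein-coding genes was -0.0085 with TPM, 0.011 with the mean over its genes, -0.45 with added subunits and 0.48 with all genes above 0 FPKM as reference, so its sign depends on the setting. With TPM, a pseudocount of 1 and that reference, IFT-A lay at -0.94, -0.94 and -0.46, the BBSome at -1.72, -1.63 and -1.23, and the genes of the cilium base at -1.33, -1.28 and -0.84. TPM moves these levels because more genes reach the limit of the reference. With the longest isoform the BBSome lay at -1.70 and the genes of the base at -1.61. The BBSome level was -1.92 with the mean and -1.53 with added subunits. The difference of IFT-B and IFT-A was 0.56 with added subunits, among them the near-identical Ttc30 copies. That of IFT-B and the BBSome was 1.93 with the mean, 1.08 with added subunits, 1.62 with the longest isoform and 1.56 with a pseudocount of 1, and that of IFT-A and the BBSome was 0.96, 0.52 and 0.65 with the first 3 of these. On the log2 scale, Kif3a to Kifap3 turned to -0.11 with the longest isoform and -0.45 without division by length, and Dync2li1 to Dync2h1 turned to -1.97 without division by length. Of the means of single genes and the pooled ratio, 181 values stayed within the spread and 79 moved, 42 of these with TPM and 37 with the longest isoform. No paired analysis was possible because all libraries belong to 1 group. Without library 2, Kif17 has 0 fragments and gives no ratio to Kif3a, so depth limits what can be said of it.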

Other observations

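Mks1, a gene of the transition zone on chromosome 11 from 87853215 to 87863803, was listed at 0 in all 3 libraries, while 14 of the 15 genes in its list had at least 1 FPKM. At the depth of these libraries, 3 fragments of Mks1 would be 0.139 to 0.144 FPKM. Its exons are overlapped by no other annotated gene. Mks1 lies in a run of 10 neighbouring genes at 0, from Mpo to Gm11507 (87793581 to 87944814), 7 of them protein coding. These include Lpo and Epx, peroxidase genes like Mpo, and olfactory receptor genes. Of all 55573 genes in the series, only 26193 had at least 1 fragment, so genes at 0 were common. The gene before the run, Tspoap1, had 16 fragments in all. Between Tspoap1 and Supt4a lie Mir142hg, Mir142b and Mir142, which were also listed at 0. Supt4a had 39.9 ± 2.65 FPKM (SD, n = 3), and after the run Dynll2 had 81.0 ± 0.736. The run was examined after the value of Mks1 had been seen, and the cause was not tested.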
